A study of Homo sapiens with 5 samples.

Results

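The genes described here are 31 genes of DNA replication and of the passage from G1 into S phase. They were the rows whose symbol matched a list of G1 cyclins and kinases, E2F factors, licensing factors, replication enzymes and S-phase regulators, and all 31 were found among the 27477 genes of the table. The measurements are RNA-seq of PC9, an established human lung adenocarcinoma line that carries an activating EGFR mutation and depends on that receptor. There were 3 libraries of parental PC9 cells and 2 of drug-tolerant cells. The groups come from the sample titles, since the treatment text is the same on parental and tolerant records. That text gives 50 nM of the EGFR inhibitor gefitinib for 6 days and then 3 days in growth media, and is read here as the treatment of the tolerant cells only. All cells were grown in RPMI medium with serum, and the labels do not say whether the replicates were separate cultures. What the p-values measure is thus the spread among these 5 libraries, and that spread may be technical.

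At the G1/S boundary, cyclin D with CDK4 or CDK6 and then cyclin E with CDK2 phosphorylate the RB protein, which releases E2F factors to drive transcription of replication genes. CDC6 and CDT1 load the ring-shaped MCM2-7 helicase onto origins, and CDC45 and the GINS complex turn it into a moving helicase that polymerases follow. In EGFR-mutant lung cancer cells, EGFR inhibition is known to lower cyclin D and hold cells in G1, and messenger RNAs of this set are widely read as a sign of cycling cells.

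The deposited data hold 1 comparison and no column per library. Whole reads per library were recovered from each gene's deposited mean, fold change and standard error. For each of the 31 genes exactly 1 set of 5 read numbers within the range searched gave back the deposited values. Dividing these by the size factors gives normalised reads, the unit of the values per library below. The libraries are called parental a, b and c and tolerant a and b, since they could not be matched to the replicate numbers of the labels. Recovered reads over 14023 genes summed to between 6057387 and 8870011 per library. The epithelial markers EPCAM, CDH1, KRT7, KRT8, KRT18 and KRT19 had mean levels from 3778 to 35758 in the authors' deposited table. Haematopoietic markers reached a mean of at most 25.9 there, and 2 of the 6 have no row. Of the fibroblast markers, COL1A1 had a mean of 162, PDGFRB one of 0.353 and the other 4 have no row in the authors' deposited table. Of the endothelial markers, the authors' deposited table has PECAM1 at a mean of 1616 and CDH5 at 253, VWF at 6.61 and no row for KDR. PECAM1 had 1629, 1151 and 1181 normalised reads in parental a, b and c and 2192 and 1926 in the tolerant libraries, and CDH5 256, 198 and 219 against 284 and 308, both above all parental libraries. Neither was called in the authors' deposited table (DESeq2 adjusted p 0.442 and 0.532), and their part in the results was not tested.

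Parental a stood apart from the other parental libraries. A chi-square of reads over genes, divided by its degrees of freedom, would be near 1 for counting noise alone. It was 81.5 between parental a and b and 84.5 between a and c. Between parental a and the tolerant libraries it was 11.2 and 10.1. Parental b and c gave 1.92 and the tolerant pair 1.82, not far from counting noise. Each was still counted as a library of its own, though the labels do not say whether these were separate cultures. In 78.3% of 14022 genes parental a lay nearer to the tolerant mean than to the mean of parental b and c. The same held for 29 of the 31 genes here, all but E2F2 and RFC3. The library carries its parental label in the authors' comparison, and a wrong label, a preparation shared with the tolerant libraries and a difference between cultures cannot be told apart here. Each fold change over the group of 3, and each ratio to parental a, rests on that label. Values per library, ratios to parental a and ratios to the mean of parental b and c are therefore given beside the main results, while some genes outside the 31 are given by their deposited fold change only.

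None of the 31 genes was called different between drug-tolerant and parental cells. A DESeq2 adjusted p under 0.05 in the authors' deposited table was found for 0 of 31, where 0.552% of the 15223 genes tested did. The smallest adjusted p was 0.468, for PCNA, and 0 of 31 reached an unadjusted p of 0.05 in the authors' deposited table, where 10.8% of all tested genes did. Positive log2 fold changes, meaning higher in drug-tolerant cells, were found for 16 genes and negative ones for 15 in the authors' deposited table. They ran from -0.56 to 0.52 with a median of 0.02, beside a median of -0.02 over all tested genes. The standard errors of the 31 genes ran from 0.20 to 0.39 in the authors' deposited table. The deposited fold changes are moderated towards 0, and so are the centres of intervals built on them. No 95% interval computed from these errors left out 0. The nearest was that of PCNA, from -1.12 to 0.01, which still holds a decrease by 1 on the log2 scale.

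**Figure D1:**
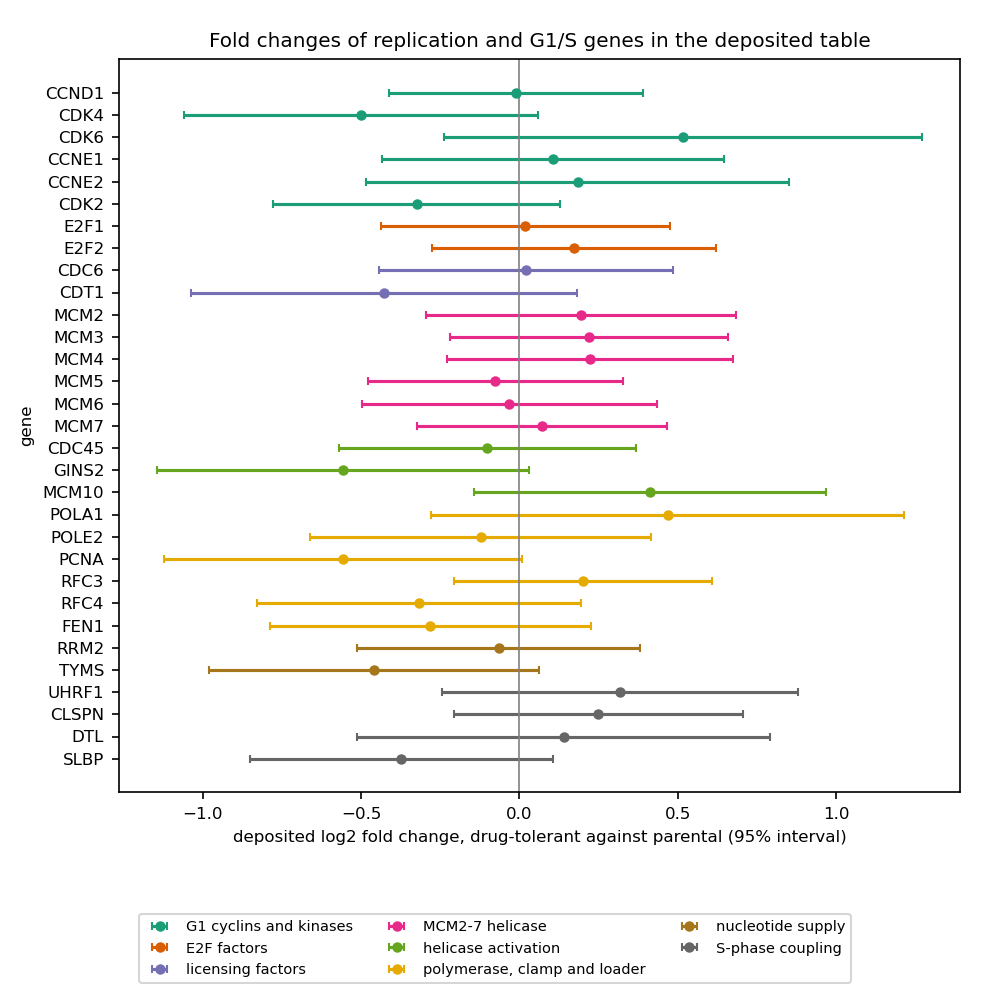
Log2 fold change (horizontal axis, drug-tolerant against parental) of each of the 31 genes (vertical axis) in the authors' deposited table, with 95% intervals as bars and colours for the role of the gene. The values are moderated towards 0. Every interval spans 0, and the points run from -0.56 for PCNA and GINS2 to 0.52 for CDK6.

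Summed over the 31 genes, the normalised reads were 49468, 50792 and 51275 in the parental libraries a, b and c. The tolerant libraries had 49216 and 50344. The group means were 50512 ± 935 (SD, n = 3) and 49780 ± 798 (SD, n = 2), and the 2 groups overlapped. The summed reads thus differed by less than the spread between libraries, but genes with many reads weigh most and opposite shifts can cancel. For the MCM helicase genes, parental a, b and c had 15975, 13475 and 13909, and tolerant a and b 15836 and 15746. For polymerases, clamp and loader, the parental sums were 8334, 10820 and 11066, and the tolerant ones 8216 and 8323. Against parental b and c these parts went in opposite directions, while parental a lay near the tolerant libraries in both. In bulk RNA, fewer cells in S phase and less of an RNA per cell cannot be told apart.

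Among single genes, both tolerant libraries lay above all 3 parental libraries for 6 of 31 (E2F2, MCM3, MCM4, MCM7, RFC3 and CLSPN), or 19.4%, against 19.5% of the 14022 genes with recovered reads. They lay below all 3 for 7 of 31 (CDK4, CDK2, MCM5, GINS2, PCNA, TYMS and SLBP), or 22.6%, against 16.4% of all genes. With 3 libraries against 2 an exact permutation test of 1 gene cannot go below a one-sided p of 0.1. The counts are thus near those of genes in general. For the other 18 genes the groups overlapped.

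**Figure D2:**
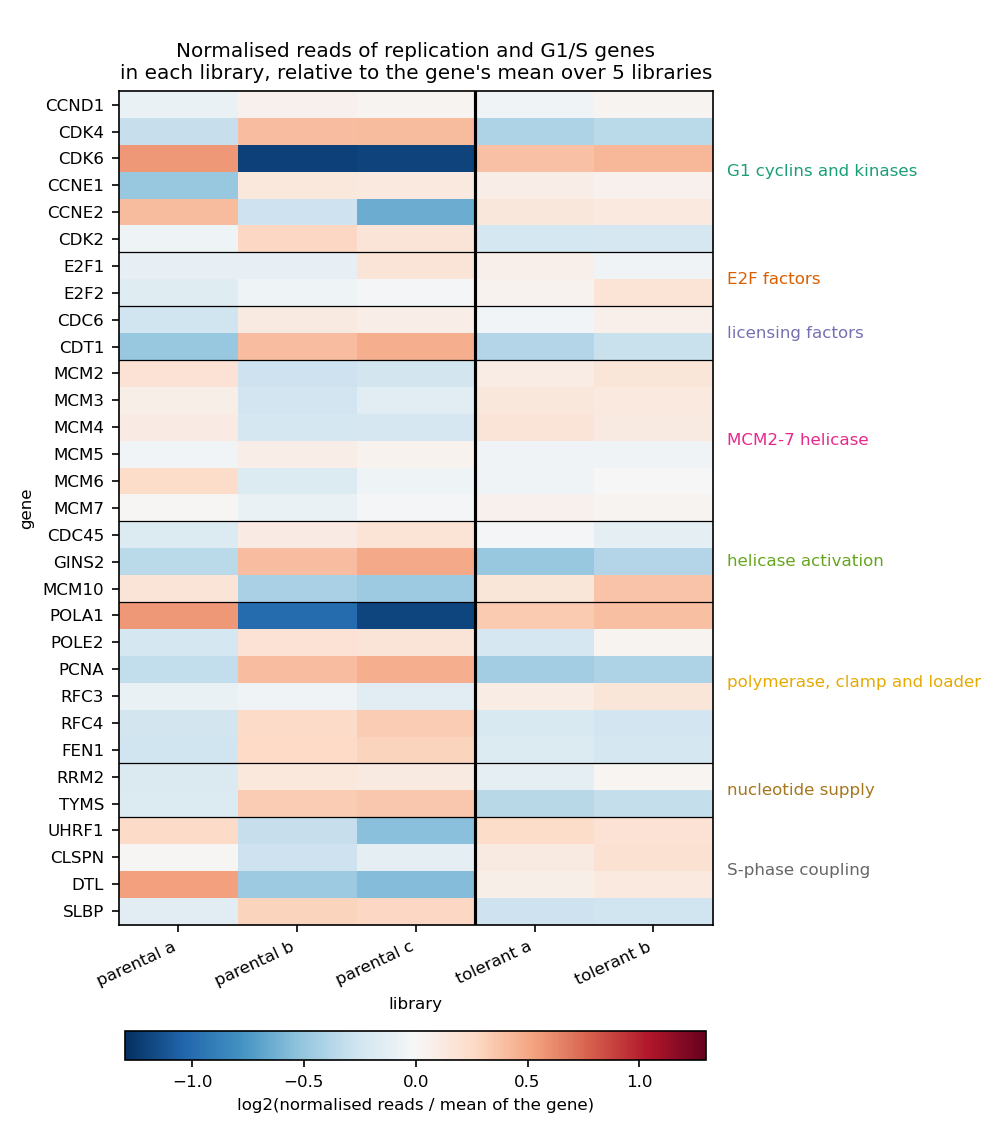
Normalised reads of each of the 31 genes (rows, grouped by role) in each of the 5 libraries (columns), as the log2 ratio to the mean of the gene over the 5 libraries, red for higher and blue for lower. Parental a resembles the tolerant libraries more than parental b and c in most rows, most clearly in CDK6 and POLA1.

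The G1 kinases differed widely between libraries. CDK6, which pairs with D-type cyclins (chromosome 7, 92604921 to 92836594, GRCh38; ENSG00000105810), stood at 2868 normalised reads in parental a, 841 in parental b and 844 in parental c. The tolerant libraries had 2537 and 2631. Parental a was thus the highest library and the groups overlapped. The tolerant mean was 3.06 times that of parental b and c and 0.901 times parental a. The log2 fold change of CDK6 was 0.52 ± 0.39 (SE; DESeq2 adjusted p 0.542) in the authors' deposited table.

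CDK4, the other partner of the D-type cyclins, had 949, 1547 and 1555 normalised reads in parental a, b and c and 886 and 917 in tolerant a and b. Both tolerant libraries were the lowest of the 5, but parental a was close to them. The tolerant mean was 0.949 times parental a and 0.581 times the mean of parental b and c, and the deposited log2 fold change was -0.50 ± 0.28 (SE; DESeq2 adjusted p 0.493) in the authors' deposited table. CDK2, the kinase of cyclin E, stood at 780, 979 and 912 in parental a, b and c and at 696 in each tolerant library. It was 1 of 2 genes, with TYMS, that were lower than parental a as well as lower than parental b and c by a factor of 1.1 or more.

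Of the cyclins, CCND1, which encodes cyclin D1, varied least. Its normalised reads were 5770, 6351 and 6259 in parental a, b and c and 5905 and 6250 in the tolerant libraries. The tolerant values lay inside the parental range. They also did so with the trend with transcript length removed from each library. There they were 5614 and 5931, beside 5458, 6799 and 6757 in parental a, b and c. The log2 fold change of CCND1 was -0.01 ± 0.20 (SE) in the authors' deposited table, with a 95% interval from -0.41 to 0.39. CCNE1, encoding cyclin E1, was lowest in parental a, at 525 normalised reads, beside 811 in b, 808 in c and 786 and 768 in tolerant a and b. It was the gene with the highest ratio of the tolerant mean to parental a among the 31, at 1.48. Against parental b and c that ratio was 0.960. CCNE2, encoding cyclin E2, had few reads, 139, 86 and 67 in parental a, b and c after normalisation, and 116 and 114 in the tolerant libraries, between parental a and b.

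The E2F genes encode the transcription factors that RB holds back. E2F1 stood at 587, 586 and 706 normalised reads in parental a, b and c and at 659 and 611 in the tolerant libraries, all within the parental range. E2F2 had 354, 379 and 386 in the parental libraries and 406 and 446 in the tolerant ones. Its groups did not overlap, and the tolerant mean was 1.20 times parental a and 1.11 times the mean of parental b and c. With the trend with transcript length removed from each library, the groups overlapped. E2F2 then stood at 316, 435 and 451 in parental a, b and c and at 369 and 405 in the tolerant libraries. The log2 fold change of E2F2, 0.17 ± 0.23 (SE; DESeq2 adjusted p 0.712) in the authors' deposited table, was smaller than its error.

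E2F factors bind DNA at sites of 8 bases rich in G and C after a run of T. The 4 spellings TTTCCCGC, TTTGGCGC, TTTCGCGC and TTTGCCGC were searched on both strands in the 250 bases before each RefSeq transcription start (build GRCh38.p14). Of the 31 genes, 26 had an entry, and 13 of these, 50.0%, held at least 1 match, against 3.40% of 27305 genes. The list was made of E2F factors and of replication genes that they drive, so this excess is no separate result. For a gene with several starts, a match at 1 of them was enough. PCNA has a further start with no match. Other spellings were not counted, and CDC6 and CDC45, both without a match, hold TTTGGCGG before a start. The 13 genes with a match had values in the authors' deposited table from -0.56 to 0.47, with the median log2 fold change at 0.07 and 8 of them positive. The 13 genes with an entry and no match ran in the authors' deposited table from -0.50 to 0.52, with the median at -0.07 and 6 positive. The promoters of PCNA, MCM3, RFC3 and MCM6 are printed because these genes share such a match while their values in the tolerant libraries lay on different sides of the parental ones: PCNA below all parental libraries, MCM3 and RFC3 above all of them, and MCM6 inside their range. Each runs 5′ to 3′ on the strand of its gene and ends at the base before the start, with the matches in capitals. MCM6 (chr2:135876444-135876693, minus strand) holds 4 matches, which overlap in 2 places. MCM3 lies at chr6:52284743-52284992 on the minus strand, RFC3 at chr13:33817899-33818148 on the plus strand and PCNA at chr20:5126623-5126872 on the minus strand. GCGGGAAA, seen in PCNA and RFC3, is TTTCCCGC read on the opposite strand, and GCGCGAAA in MCM6 is TTTCGCGC. A match is a run of letters and was not measured as a bound site.
PCNA: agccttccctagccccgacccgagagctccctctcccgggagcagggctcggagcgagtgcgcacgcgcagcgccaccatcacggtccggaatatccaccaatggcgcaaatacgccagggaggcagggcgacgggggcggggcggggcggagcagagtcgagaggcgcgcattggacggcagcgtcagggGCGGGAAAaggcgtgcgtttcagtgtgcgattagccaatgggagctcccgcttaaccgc
MCM3: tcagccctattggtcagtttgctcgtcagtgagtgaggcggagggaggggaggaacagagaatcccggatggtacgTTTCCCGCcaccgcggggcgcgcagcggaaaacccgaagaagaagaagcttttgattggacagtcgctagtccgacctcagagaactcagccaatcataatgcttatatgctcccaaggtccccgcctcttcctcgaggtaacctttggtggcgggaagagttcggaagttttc
RFC3: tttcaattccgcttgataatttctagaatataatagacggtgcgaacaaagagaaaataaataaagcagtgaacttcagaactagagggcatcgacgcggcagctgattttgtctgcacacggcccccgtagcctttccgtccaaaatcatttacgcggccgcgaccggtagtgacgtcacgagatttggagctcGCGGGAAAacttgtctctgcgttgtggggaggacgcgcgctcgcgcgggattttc
MCM6: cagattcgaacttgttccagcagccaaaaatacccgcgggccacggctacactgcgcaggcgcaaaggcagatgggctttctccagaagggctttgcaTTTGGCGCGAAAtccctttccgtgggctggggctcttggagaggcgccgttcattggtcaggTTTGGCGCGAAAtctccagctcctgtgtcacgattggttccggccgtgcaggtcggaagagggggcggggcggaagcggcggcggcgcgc

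In both licensing factors parental a was the lowest library. CDT1, which brings the helicase to origins and is destroyed in S phase, had 758, 1404 and 1478 normalised reads in parental a, b and c and 822 and 871 in tolerant a and b. The tolerant values lay just above parental a and far under the others. Their mean was 1.12 times parental a and 0.587 times the mean of parental b and c, and the log2 fold change was -0.43 ± 0.31 (SE; DESeq2 adjusted p 0.534) in the authors' deposited table. CDC6, the ATPase that loads the helicase with CDT1, stood at 1391, 1808 and 1773 in the parental libraries and at 1624 and 1746 in the tolerant ones. The tolerant libraries lay between parental a and parental c.

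The MCM2-7 subunits form 1 ring with 1 copy of each. MCM3 had 3115, 2483 and 2664 normalised reads in parental a, b and c and 3269 and 3229 in the tolerant libraries. MCM4 had 3570, 2834 and 2852 in the parental libraries and 3726 and 3581 in the tolerant ones. In both genes the groups did not overlap, yet the tolerant mean exceeded parental a by a factor of 1.04 for MCM3 and 1.02 for MCM4, beside 1.26 and 1.29 against parental b and c. MCM7 was also above all parental libraries, with 3294, 3058 and 3186 against 3376 and 3332. MCM2 stood at 1898, 1386 and 1414 in parental a, b and c and at 1780 and 1860 in the tolerant libraries, with parental a highest. MCM5 was the 1 subunit whose tolerant values, 1852 and 1855, lay below all parental ones, at 1869, 2039 and 1976. MCM6 was highest in parental a, at 2228, while b had 1675 and c had 1817, beside 1833 and 1890 in tolerant a and b.

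Summed over the 6 subunits, normalised reads were 15975, 13475 and 13909 in parental a, b and c. They were 15836 and 15746 in tolerant a and b. Parental a was the highest of the 5, so the group means, 14453 ± 1336 (SD, n = 3) and 15791 ± 63.7 (SD, n = 2), differed by about the parental spread. Log2 fold changes of the 6 subunits ran from -0.08 for MCM5 to 0.22 for MCM4 in the authors' deposited table, each with a standard error of at least 0.20. Per kilobase of the longest transcript, MCM7 (1054 normalised reads per kb, mean of 5 libraries) and MCM3 (920) were highest, followed by MCM4 (792), MCM5 (543), MCM6 (506) and MCM2 (460). The ranges of neighbours in this order overlapped across libraries, except MCM4 and MCM5. Within each library, however, MCM7 was above MCM3 and MCM3 above MCM4, while the order of MCM5, MCM6 and MCM2 changed between libraries. With the median transcript length in place of the longest, MCM5 was the highest, at 1221 per kb, so the order depended on the transcript model.

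**Figure D3:**
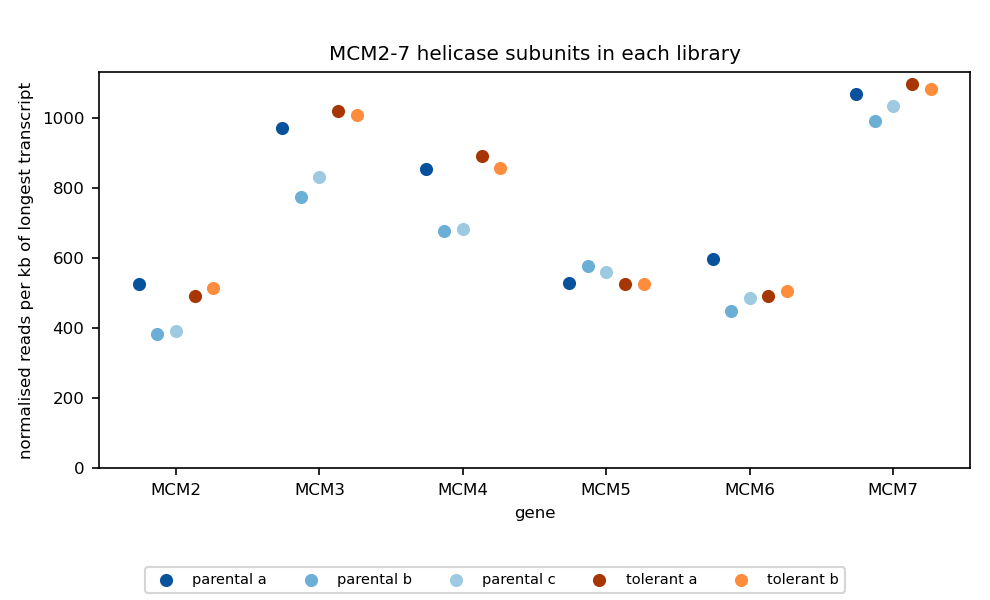
Normalised reads per kb of the longest transcript (vertical axis) of the 6 MCM2-7 subunits (horizontal axis) in each library, blue points for parental and orange points for drug-tolerant libraries. The tolerant points of MCM3, MCM4 and MCM7 are the highest of their gene, those of MCM5 the lowest, and parental a lies beside them in each of these 4 genes.

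The genes that turn the loaded ring into a helicase did not share a direction. GINS2, a subunit of the GINS complex (chromosome 16, 85676198 to 85690073, GRCh38; ENSG00000131153), had 509, 854 and 912 normalised reads in parental a, b and c and 460 and 497 in tolerant a and b. Both tolerant libraries were below all parental ones, at 0.941 times parental a and 0.542 times the mean of parental b and c. The authors' deposited table gave it a log2 fold change of -0.56 ± 0.30 (SE; DESeq2 adjusted p 0.475), which was, with that of PCNA, the lowest of the 31. MCM10, which acts when the helicase starts to move, ran the other way, with 628, 417 and 402 in the parental libraries and 624 and 721 in the tolerant ones. Parental a lay between the tolerant values. CDC45, the third part of the active helicase, had 539, 654 and 687 in the parental and 601 and 558 in the tolerant libraries, all within the parental range.

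PCNA, the sliding clamp that holds polymerases on DNA (chromosome 20, 5114953 to 5126626, GRCh38; ENSG00000132646), had 2916, 4818 and 5057 normalised reads in parental a, b and c. The tolerant libraries had 2669 and 2751, below all parental ones. The tolerant mean was 0.929 times parental a and 0.549 times the mean of parental b and c. The log2 fold change was -0.56 ± 0.29 (SE; DESeq2 adjusted p 0.468) in the authors' deposited table.

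POLA1, the catalytic subunit of the polymerase that makes primers (chromosome X, 24693919 to 24996986, GRCh38; ENSG00000101868), had 1139 normalised reads in parental a but only 385 in b and 337 in c. Tolerant a and b had 979 and 1014. The tolerant mean was 2.76 times that of parental b and c and 0.875 times parental a, the largest such contrast after CDK6. Its log2 fold change was 0.47 ± 0.38 (SE; DESeq2 adjusted p 0.568) in the authors' deposited table. POLE2, a subunit of the leading-strand polymerase, stood at 178, 239 and 234 in the parental libraries and at 180 and 214 in the tolerant ones, inside the parental range.

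RFC3 and RFC4 are subunits of the loader that opens PCNA. In RFC3 the parental libraries were alike, with 1146, 1182 and 1103 normalised reads, and the tolerant libraries, at 1299 and 1360, were higher than each. The tolerant mean was 1.16 times parental a and 1.16 times the mean of parental b and c. E2F2, RFC3 and CLSPN were the 3 genes with a ratio of 1.1 or more against both. The log2 fold change of RFC3 was 0.20 ± 0.21 (SE; DESeq2 adjusted p 0.638) in the authors' deposited table. RFC4 had 1210, 1698 and 1796 in the parental libraries and 1244 and 1201 in the tolerant ones. FEN1, the nuclease that trims Okazaki fragments, had 1745, 2497 and 2539 in the parental and 1845 and 1782 in the tolerant libraries. In both genes parental a lay beside the tolerant libraries and parental b and c were higher.

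TYMS, thymidylate synthase, had 451, 642 and 647 normalised reads in parental a, b and c and 396 and 412 in the tolerant libraries. Both tolerant values were below all parental ones, at 0.896 times parental a and 0.627 times the mean of parental b and c. Its log2 fold change was -0.46 ± 0.27 (SE; DESeq2 adjusted p 0.493) in the authors' deposited table. RRM2, the S-phase subunit of ribonucleotide reductase, stood at 3585, 4477 and 4407 in the parental libraries and at 3769 and 4142 in the tolerant ones, between parental a and parental c.

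The last 4 genes tie chromatin, checkpoint and histone supply to S phase. SLBP, which binds histone messenger RNAs, had 1754, 2372 and 2347 normalised reads in parental a, b and c and 1614 and 1624 in the tolerant libraries, below all parental ones. CLSPN, an adaptor of the replication checkpoint, had 520, 427 and 475 in the parental libraries and 556 and 591 in the tolerant ones, above all of them. UHRF1, which recruits DNA methylation to new strands, had 1845, 1261 and 1069 in the parental and 1831 and 1768 in the tolerant libraries, which were just under parental a. DTL, part of the ubiquitin ligase that removes CDT1, had 1208, 601 and 565 in parental a, b and c and 877 and 913 in tolerant a and b. For DTL the tolerant libraries lay between the parental ones, at 0.741 times parental a and 1.53 times the mean of parental b and c.

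Ratios to parental a were small in most of the 31 genes. The tolerant mean was within a factor of 1.1 of parental a for 16 genes, above it by more for 8 and below it by more for 7. Over all 14022 genes these shares were 34.8%, 35.0% and 30.2%. Against parental b and c, 7 of 31 genes were within a factor of 1.1, beside 12.7% of all genes.

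The difference from parental b and c followed transcript length. Spearman's rho between the longest transcript and the log2 ratio of tolerant mean to parental b and c was 0.75 across the 31 genes and 0.59 across 11349 protein-coding genes. Against parental a it was 0.02 across the 31 genes and -0.20 across the protein-coding genes. The ratio of parental a itself to parental b and c gave 0.72 and 0.64. Genes are not independent replicates, and these ratios share libraries. The 16 genes with the longer transcripts, among them CDK6 (11612 nucleotides) and POLA1 (5486), had a median of 0.18 among their log2 fold changes in the authors' deposited table, with 11 positive. The 15 with the shorter, among them PCNA (1359) and RFC4 (1448), were at a median of -0.28 in that column of the authors' deposited table, with 5 positive. With the trend with length and GC content removed from the deposited Wald score, 0 of the 31 genes had an adjusted p under 0.05, beside 0.546% of 12461 protein-coding genes. From recovered reads, the median log2 ratio of the longer genes was 0.01 to parental a and 0.35 to parental b and c, and that of the shorter genes 0.03 and -0.44. The part of length, or of whatever varies with it in a library, in these differences was not tested.

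**Figure D4:**
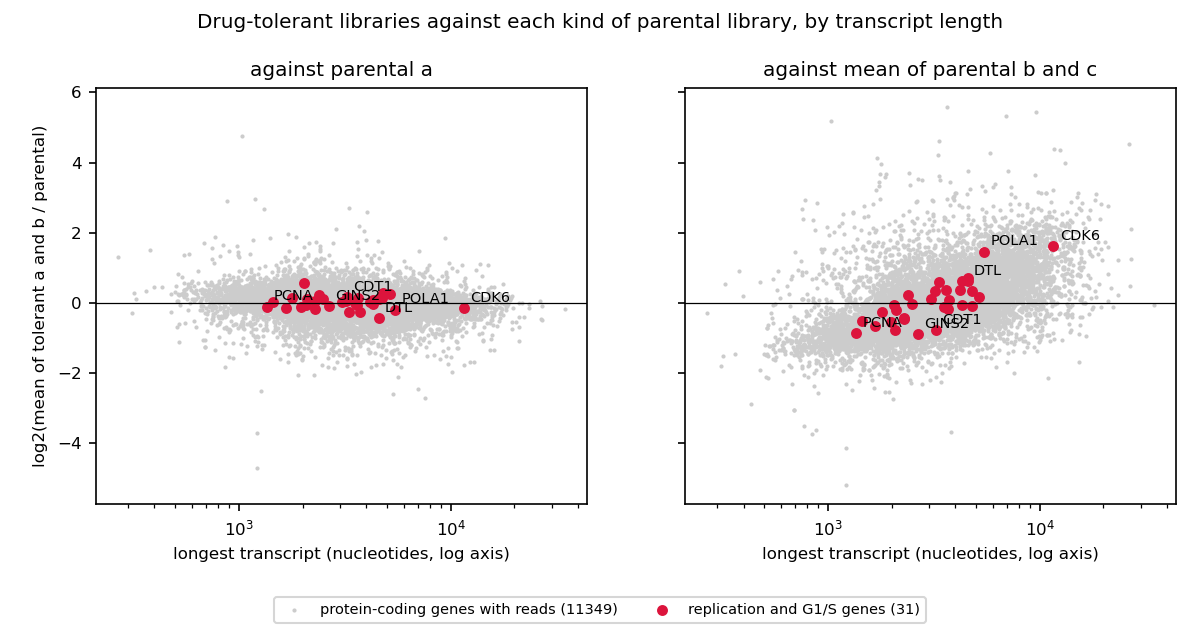
Log2 ratio of the mean of the tolerant libraries (vertical axis) to parental a (left panel) and to the mean of parental b and c (right panel) against the longest transcript (horizontal axis, log scale), in red for the 31 genes and grey for 11349 protein-coding genes. The red points slope upwards with length in the right panel (rho 0.75) and show no slope in the left panel (rho 0.02).

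Whether any of these genes passed a test depended on parental a. With limma on the recovered reads, 0 of 31 genes and 0 of 14022 in all had an adjusted p under 0.05 with all 5 libraries, while 0 of the 31 and 11.1% of all genes had an unadjusted p under 0.05. Without parental a, limma called 11 of the 31 genes higher and 12 lower. That is 74.2% of the 31, beside 71.6% of all genes (35.6% higher and 36.0% lower), a share near that of all genes. CDK6 then had a log2 difference of 1.62 ± 0.056 (SE), POLA1 of 1.47, GINS2 of -0.88 and PCNA of -0.86. The errors of this fit rest on parental b and c and on the tolerant pair, each alike almost to counting noise. They may not measure the spread between cultures. Leaving out any other single library gave 0 calls.

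The same fit was run after the trend with transcript length was removed from each library. With all 5 libraries limma called 0 of 31, and 0 of 11349 protein-coding genes, with 19.6% of these at an unadjusted p under 0.05. Without parental a it called 15 higher and 10 lower, or 80.6% of the 31 beside 65.7% of all genes (32.7% higher and 33.0% lower). Called higher with and without the removal were 10 genes, CDK6, CCNE2, MCM2, MCM3, MCM4, MCM10, POLA1, RFC3, UHRF1 and DTL. Called lower in both were 6, CDK4, CDT1, GINS2, PCNA, FEN1 and RRM2. The sizes changed, however. Without parental a, the log2 difference of CDK6 went from 1.62 to 0.55 with the removal and that of POLA1 from 1.47 to 1.07. GINS2 went from -0.88 to -0.67 and PCNA from -0.86 to -0.14, while RFC3 rose from 0.22 to 0.51. After the removal PCNA stood at 3809, 3535 and 3600 in parental a, b and c and at 3210 and 3282 in the tolerant libraries. CDC45 and RFC4 were called lower before and higher after the removal. Called only after it were CCNE1, E2F1 and MCM7, as higher, and CCND1, E2F2, CDC6 and MCM5, as lower. CCND1 was then at a log2 difference of -0.23 and E2F2 at -0.20. Called only before it were CLSPN, as higher, and CDK2, POLE2, TYMS and SLBP, as lower. After the removal, both tolerant libraries lay above all parental ones for 5 genes (22.7% of all genes did), of which MCM3, MCM4 and RFC3 did so before as well. They lay below all parental ones for 7 genes (20.7% of all genes), the same 7 as before.

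The rest of the pathway was read from lists of further genes. Of 86 further genes of the RB and E2F circuit, origins, fork enzymes, nucleotide supply and the replication checkpoint, 84 had an adjusted p and 0 were called in either direction in the authors' deposited table (DESeq2). Their median log2 fold change was 0.01, with 42 positive and 42 negative. An unadjusted p under 0.05 was found for 6 of the 84, or 7.14%, in the authors' deposited table, below the 10.8% of all tested genes. Of the 83 with recovered reads, both tolerant libraries lay above all parental ones for 23 (27.7%) and below all of them for 8 (9.64%), beside 19.5% and 16.4% of all 14022 genes. The median log2 ratio of the 83 genes was 0.08 to parental a and 0.02 to parental b and c, beside 0.03 and -0.02 over all genes.

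By list, the members of the RB and E2F circuit with the smallest adjusted p were LIN54 (0.32 ± 0.23, SE), RBL1 (0.42 ± 0.31), TFDP2 (-0.53 ± 0.22) and SKP2 (-0.22 ± 0.21) in the authors' deposited table. LIN54 and RBL1 belong to complexes that repress or switch cell cycle genes, TFDP2 is a partner of E2F and SKP2 targets the inhibitor p27 for destruction. For origins they were GINS4 (0.54 ± 0.26), RECQL4 (0.36 ± 0.21), DBF4 (-0.42 ± 0.29) and ORC4 (-0.22 ± 0.24) in the authors' deposited table. GINS4 is in the same complex as GINS2 and had 461, 632 and 684 normalised reads in parental a, b and c and 923 and 889 in the tolerant libraries. It was thus above all parental libraries where GINS2 was below them.

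For polymerases and fork enzymes they were TOP1 (0.50 ± 0.23), POLE (0.64 ± 0.36), RPA3 (-0.85 ± 0.33) and RNASEH2A (-0.57 ± 0.32) in the authors' deposited table. For nucleotide supply they included CTPS1 (0.42 ± 0.22), SAMHD1 (0.52 ± 0.33) and DUT (-0.69 ± 0.32) in the authors' deposited table. For the checkpoint and chromatin list they were TIMELESS (0.42 ± 0.23), DNMT1 (0.63 ± 0.34), ASF1B (-0.59 ± 0.31) and ASF1A (-0.35 ± 0.29) in the authors' deposited table.

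Genes that act before and after this step were not called either. Of 20 genes of mitosis and G2/M, 0 were called in the authors' deposited table (DESeq2), with a median log2 fold change of -0.07. For the 18 with recovered reads the median log2 ratio was 0.17 to parental a and -0.24 to parental b and c. MKI67, the proliferation marker, was at 0.65 ± 0.40 (SE), TOP2A at 0.41 ± 0.30, BUB1B at 0.43 ± 0.25, CCNB2 at -0.64 ± 0.31 and NUSAP1 at -0.41 ± 0.25 in the authors' deposited table. Of 6 CDK inhibitor genes tested in the authors' deposited table (DESeq2), 0 were called, and the median log2 fold change was -0.44. An unadjusted p under 0.05 was found there for 2 of the 6 (33.3%), beside 10.8% of all tested genes. Both tolerant libraries lay below all parental ones for 3 of the 6 (50.0%), beside 16.4% of all genes. They lay above all of them for 0, beside 19.5%. From recovered reads, the median log2 ratio of the 6 genes was -0.11 to parental a and -0.69 to parental b and c. CDKN1A, which encodes p21, an inhibitor of CDK2, had 167, 409 and 439 normalised reads in parental a, b and c and 102 and 155 in the tolerant libraries, below all parental ones. Its log2 fold change was -1.01 ± 0.36 (SE; DESeq2 adjusted p 0.267) in the authors' deposited table. CDKN2D, an inhibitor of CDK4 and CDK6, was at -1.06 ± 0.39 and CDKN2B, of the same family, at 0.45 ± 0.34 in the authors' deposited table.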

How the data were processed

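Poly(A) RNA-seq of 3 parental and 2 drug-tolerant libraries was used. FastQC, STAR and DESeq2 are the tools, and hg38 the build, per the submitters' processing notes. Their versions, the counting tool and the annotation were not given in the sources used here. A gene's deposited mean level is a signal, reads divided by size factors, averaged over all libraries. Log2 fold changes, their errors and the Wald score were deposited by the authors, with p-values and adjusted p-values. These fold changes are moderated towards 0.

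Size factors (0.789 to 1.19) were read from the steps of low means. Reads in 3 libraries pulled fold changes below 0 and in 2 above it, so positive values are higher in drug-tolerant cells. Whole reads were searched that gave back each gene's mean, fold change, error and dispersion. Of 14222 genes tried (means up to 3000, gene lists up to 12000), 14023 gave 1 solution, 194 none and 5 several. Tested on genes simulated with the same model from means below 3000, the search returned the right reads for 299 of 300 and wrong ones for 0. CCND1, RRM2, PCNA, MCM4 and MCM7 have means above that limit. The full search was also run on 1397 real genes with low means, whose reads the mean alone decides. It gave the same reads for 1170, none for 227 and other reads for 0. The recovered reads carry counting error, and depth is known only through them.

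limma 3.58.1 in R 4.3.3 was fitted with a mean trend to log2(normalised reads + 0.5), with Benjamini-Hochberg adjustment. On simulated tolerant and parental libraries of 14022 genes it recovered 85.0% of genes changed 2-fold. The simulated parental libraries were alike, with none set apart as parental a was. Their spread was also smaller than that fitted to any of the 31 genes. The share thus does not give the power of the real fit with all 5 libraries. Length trends used lowess with a span of 0.3. These fits and trends per library were added after seeing the data. Transcript lengths came from GENCODE (GRCh38), promoters from RefSeq, by symbol. Named genes were the 31, MKI67 and TOP2A and, of each further list, the 2 with the smallest adjusted p in each direction. A gene that this rule names is not reported here. The genes and lists were chosen with earlier results of these data known.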

Additional observations from a re-analysis of the deposited data

How the results depend on the processing

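No paired analysis was possible because the table carries no replicate numbers, so no replicate block could be fitted. The count of 0 genes called among the 31 and among the 84 further pathway genes held at adjusted p under 0.01 and 0.1, with no filter on low means, with a mean of at least 50, with a centred and scaled Wald score, with the length and GC trend removed from the deposited score and with a log2 fold change of at least 1. With limma on recovered reads, leave-one-out counts ran from 0 to 23 for the 31 genes and from 0 to 69 for the further genes. After removal of the length trend in each library they ran from 0 to 25 and from 0 to 57. The highest count was in each case the one without parental a, and the others were 0. The cause was not tested. The median of the 31 genes, 0.02, ran from -0.05 to 0.07 when each library was left out and from 0.03 to 0.17 after removal of the length trend. Without parental a, CCNE1, CDC6, E2F1 and MCM6 changed sign. Without 1 of the other libraries, between 1 and 3 genes did. With the length and GC trend removed from the deposited values, E2F2, CDC6, CDC45, POLE2 and RFC4 did. Of the 31 levels per kb, 21 moved by more than the parental spread with the median transcript length. Depth limits CCNE2 most, with a mean level of 104, and 2 tolerant libraries limit every comparison.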
